A study of Mus musculus with 12 samples.

Results

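The 10 genes described here are the transcription factor gene Nfe2l2, its inhibitor Keap1, the target genes Hmox1, Nqo1, Gclc, Gclm, Txnrd1 and Srxn1, and the superoxide dismutase genes Sod1 and Sod2. They were chosen by symbol among the 21872 symbols of the deposited count table, and all 10 were among the 14545 genes that passed the filter on low counts. The 4 groups were C57BL/6J mouse prefrontal cortex (PFC) after a 6-hydroxydopamine (6-OHDA) lesion, control PFC, lesioned striatum and control striatum, with 3 libraries each at postnatal day 24. 6-OHDA is a toxin taken up by dopamine neurons, and the lesioned mice served the submitters as a model of attention-deficit/hyperactivity disorder. How and when the toxin was given, and what the controls received, is not stated in the labels. The labels do not tie the libraries to animals either, so each p-value measures spread among libraries, which may be technical.

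Nrf2, the protein of Nfe2l2, is bound by the adaptor protein Keap1 and passed to the proteasome while the cell is unstressed. Electrophiles and oxidants modify cysteines of Keap1, after which Nrf2 accumulates, enters the nucleus and binds antioxidant response elements together with small Maf proteins. In brain the pathway is best known from astrocytes, which supply neurons with precursors of glutathione. Much of this control acts on the protein, so that the transcript of Nfe2l2 alone does not report its activity.

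The core of the antioxidant response element was looked for in the promoters, because it is the sequence that Nrf2 binds with its Maf partners. The core was spelled TGACNNNGC and was searched on both strands, in windows of 250 bases before to 50 after each RefSeq start site (GRCm38.p6). Promoters were matched for 8 of the 10 genes, and Hmox1 and Gclc were without an entry. The core lay in 5 of these 8 genes, against 13.99% of 27025 genes, or 12.4% of 32851 promoters, in the whole table. The windows with a core had 61.3% (Txnrd1) to 79.7% (Gclm) of G and C, against a median of 52.7% over all promoters. Those of Keap1, Nqo1 and Sod2, without a core, had 53.3, 53.7 and 64.3%. Txnrd1 had several windows to match in. The part of base composition and of the number of windows in this share was not tested. The stricter spelling TGACTCAGC, of the same length and shared with the related factor NF-E2, lay in 0 of the 8 genes, and in 0.454% of all promoters. The spelling TGAGTCAGC, with G in place of C, was not searched, and the Srxn1 window holds it before the start site. Below are the 5 matches with 10 bases on either side, in the direction of the gene, 5′ to 3′, with the core in capitals. It stands in forward spelling at Nfe2l2, and as its reverse complement at the other 4 genes.
Nfe2l2 (chr2:75704885-75704913, minus strand): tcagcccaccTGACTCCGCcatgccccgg
Gclm (chr3:122245413-122245441, plus strand): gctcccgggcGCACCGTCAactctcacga
Txnrd1 (chr10:82859104-82859132, plus strand): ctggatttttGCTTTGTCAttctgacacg
Srxn1 (chr2:152105542-152105570, plus strand): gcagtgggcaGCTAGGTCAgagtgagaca
Sod1 (chr16:90220696-90220724, plus strand): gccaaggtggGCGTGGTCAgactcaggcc

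The first base of the core lay 240 bases before the start site at Nfe2l2 (-240), and at -134 at Gclm, -92 at Txnrd1 and -56 at Sod1. At Srxn1 it lay within the transcribed part, at position 28. A match of these letters is a description and not a site of binding.

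Txnrd1 was the one gene of the 10 called after the lesion, as described below, so that the 250 bases before its start site are given whole. The table holds 3 start sites of Txnrd1, of which this one carried a core. The counts are per gene and do not tell the starts apart.
Txnrd1 upstream (chr10:82858956-82859205, plus strand): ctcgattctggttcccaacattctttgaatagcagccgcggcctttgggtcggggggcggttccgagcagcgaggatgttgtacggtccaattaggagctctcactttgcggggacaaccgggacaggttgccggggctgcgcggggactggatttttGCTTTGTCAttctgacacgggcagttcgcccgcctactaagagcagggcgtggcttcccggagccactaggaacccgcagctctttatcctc

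Total counts lay between 15078631 and 20925452 per library, so that 3 counts, taken as the floor, amounted to 0.143 to 0.199 CPM (counts scaled to the library total); this covers counting error only. Values below are CPM normalised by the trimmed mean of M-values (TMM), and fold changes are log2. The biological coefficient of variation was 5.81% in PFC and 15.05% in striatum, and for that reason each lesion effect was fitted on the 6 libraries of its region. Among dopamine neuron markers, Ddc fell in PFC (-0.80, edgeR adjusted p = 0.0064), and the summed level of the 4 markers was 7.52 to 8.59 CPM in lesioned PFC, against 11.05 to 17.7 in control PFC. In striatum the sums overlapped, at 20.9 to 36.2 CPM after the lesion and 29.1 to 42.3 CPM in controls. Of these 4 markers 3 passed the filter on low counts. Whether their levels in these tissues report the loss of dopamine neurons was not tested. Cortical excitatory neuron markers summed to 2605 to 2856 CPM in the 6 PFC libraries. Striatal libraries stood apart in their tissue markers: 10 markers of striatal projection neurons summed to 9487 CPM in lesioned library 1, against 3828 and 5510 in the other lesioned libraries and 1813 to 2863 in the controls. Control library 2 of striatum had 2078 CPM of choroid plexus and ependymal markers and 923 CPM of cortical excitatory neuron markers. Striatal results are therefore also given without lesioned library 1 and control library 2.

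In PFC the lesion left 9 of the 10 genes without a call, and Txnrd1 alone fell. Over all genes tested, 5.53% were called at an adjusted p below 0.05, and 2.18% were called lower. The median of the 10 log2 fold changes was -0.02, beside -0.00 for all genes, and their median absolute value was 0.04, beside 0.10 for all genes. With 1 call among 10, the share is near that of all genes. The libraries of lesioned and control PFC did not overlap for 2 of the 10 genes, Txnrd1 and Hmox1, against 24.9% of all genes.

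**Figure D1:**
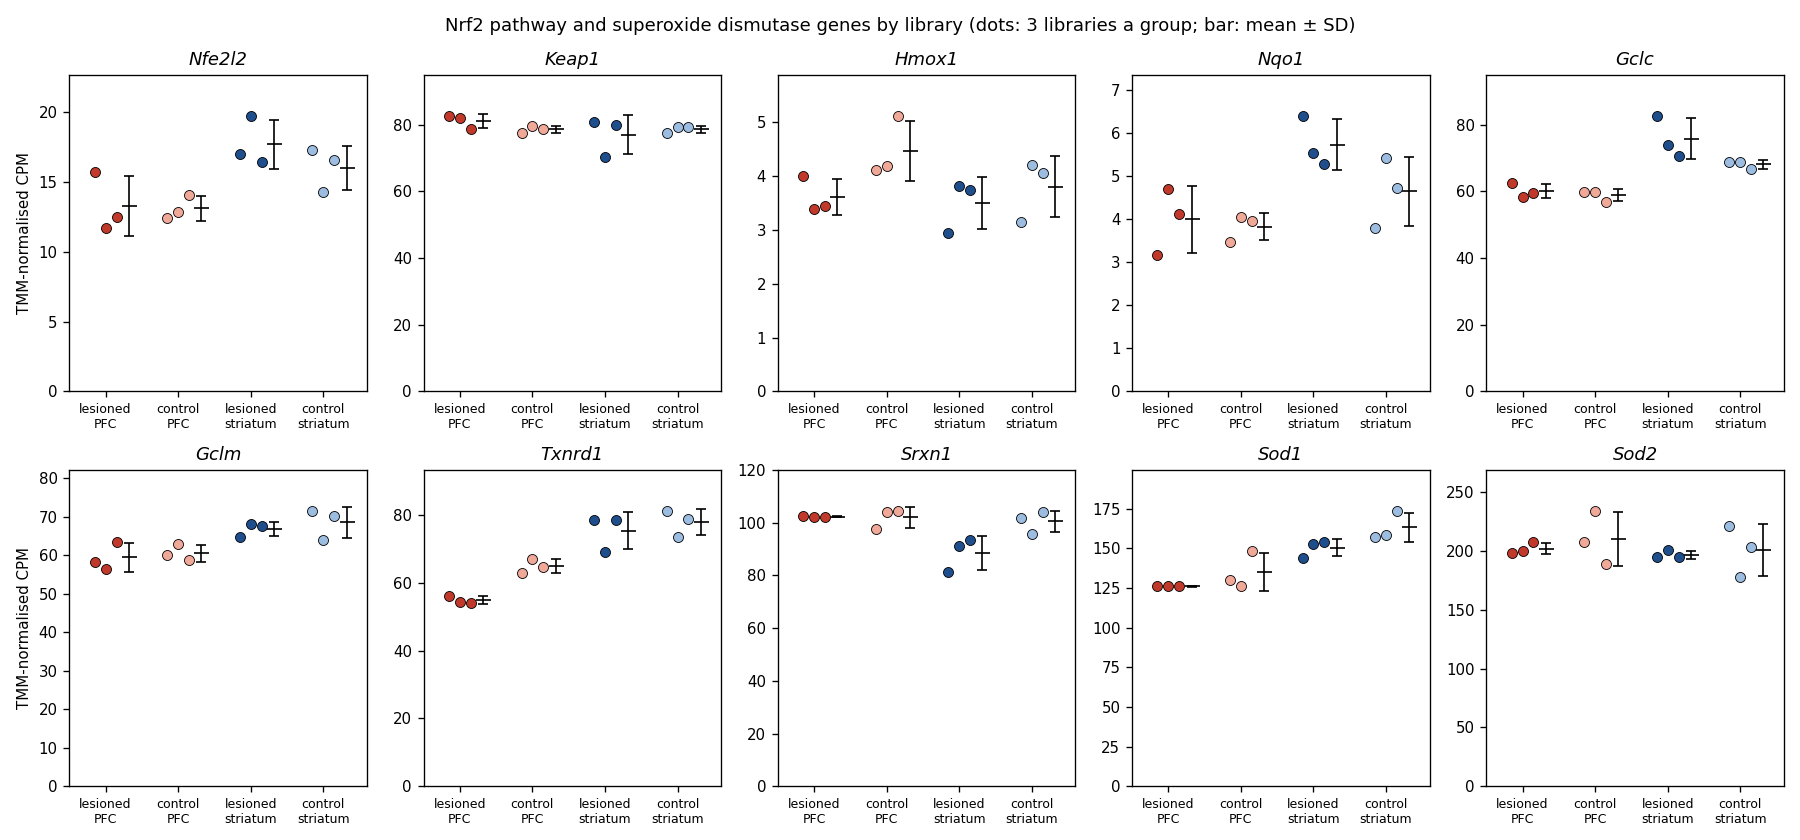
TMM-normalised CPM (vertical axis, from 0) of each of the 10 genes in the 12 libraries, with 3 dots a group and the mean ± SD beside them; lesioned groups stand left of their controls. Txnrd1 sits at 54.2 to 56.2 CPM in lesioned PFC, below the 62.9 to 67.0 CPM of control PFC, and the small gaps seen for Hmox1 in PFC and for Gclc, Srxn1 and Sod1 in striatum were not called.

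The regulators came first in the pathway. Nfe2l2, on chromosome 2 at 75675513 to 75704641 (mm10, minus strand), had 15.7, 11.7 and 12.5 CPM in lesioned PFC, against 12.4, 12.8 and 14.1 CPM in control PFC. The lesioned values lay on both sides of the controls, with a log2 fold change of 0.02 (SE 0.12, edgeR adjusted p = 0.961). Keap1, on chromosome 9 at 21229730 to 21239361 (minus strand), had 82.6, 82.0 and 78.8 CPM in lesioned PFC, against 77.7, 79.6 and 78.7 CPM in control PFC. Its groups overlapped, and the interval of its log2 fold change of 0.03 ran from -0.07 to 0.14. Of its exon bases 10.9% are shared with the antisense gene Gm16754, and since no source used here gives the strand setting of the counting, its level is uncertain to that extent.

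Among the targets, Hmox1 encodes haem oxygenase 1, which breaks haem down to biliverdin, iron and carbon monoxide. It lies on chromosome 8 at 75093621 to 75100589 and had 3.99, 3.38 and 3.45 CPM in lesioned PFC, against 4.10, 4.17 and 5.11 CPM in control PFC. Every lesioned library was below every control library, but the log2 fold change of -0.31 (SE 0.17) was not called (edgeR adjusted p = 0.340). The gene had 56 to 76 counts in the lesioned and 65 to 83 in the control libraries, and its interval, from -0.67 to 0.06, was wider than that of any of the 10 but Nqo1. Nqo1, a quinone reductase gene on chromosome 8 at 107388225 to 107403206, also had few counts, 60 to 78 in lesioned and 58 to 70 in control PFC, with 3.15, 4.71 and 4.12 CPM in lesioned PFC, against 3.46, 4.05 and 3.95 CPM in control PFC. The controls lay inside the range of the lesioned libraries (0.05, SE 0.19).

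Gclc and Gclm encode the catalytic and the modifier subunit of glutamate-cysteine ligase, which makes the first step of glutathione synthesis. Gclc (chromosome 9, 77754535 to 77794485) had 62.4, 58.2 and 59.5 CPM in lesioned PFC, against 59.9, 59.9 and 56.7 CPM in control PFC. Gclm (chromosome 3, 122245557 to 122270732) had 58.3, 56.4 and 63.5 CPM in lesioned PFC, against 59.97, 62.7 and 58.6 CPM in control PFC. Both pairs of groups overlapped, with log2 fold changes of 0.02 for Gclc (SE 0.06) and -0.04 for Gclm (SE 0.06). Of the exon bases of Gclm, 4.71% are shared with other annotated genes.

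Txnrd1 encodes the cytosolic thioredoxin reductase, a selenoprotein that passes electrons of NADPH to thioredoxin, and lies on chromosome 10 at 82833951 to 82897712. It had 56.2, 54.4 and 54.2 CPM in lesioned PFC, against 62.9, 67.0 and 64.6 CPM in control PFC. The highest lesioned library was below the lowest control library. Txnrd1 fell by 15.9%, a log2 fold change of -0.25 (SE 0.05, 95% interval -0.37 to -0.13, edgeR adjusted p = 0.0165). The call was lost when all 12 libraries shared 1 fit (-0.24, adjusted p = 0.186), where 30 genes were called in PFC. It was also lost without lesioned library 2 (adjusted p = 0.0948) or lesioned library 3 (adjusted p = 0.0742) of PFC, while its log2 fold change stayed between -0.27 and -0.23 with any 1 library left out.

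Markers of several cell types were also lower in lesioned PFC, and in bulk tissue fewer cells of a type and less RNA per cell cannot be told apart. Of 10 astrocyte markers, 7 fell and 0 rose after the lesion, and their summed level was 5305, 5479 and 5375 CPM in lesioned PFC, against 5950, 6291 and 5871 CPM in control PFC. None of the 10 was at 0 in any library. The sums of endothelial and mural markers were 387 to 403 CPM in lesioned PFC, against 425 to 472 CPM in control PFC, and 2 of these 10 markers fell. Of 7 markers of oligodendrocyte precursors, 2 fell and 7 were below 0, with sums of 339 to 367 CPM in lesioned PFC, against 368 to 443 CPM in control PFC. Markers of hypothalamic and border neurons summed to 137 to 148 CPM in lesioned PFC, against 164 to 197 CPM in control PFC, and 1 of 6 fell. Of 4 tested red blood cell genes 2 fell, and the sums of this list overlapped, with 1.03 to 6.73 CPM in lesioned PFC, against 3.34 to 18.4 CPM in control PFC. Among microglial and macrophage markers 1 of 12 fell, and among mature oligodendrocyte markers 1 of 8, both with overlapping sums. In the other direction, 2 of 8 cortical excitatory neuron markers rose and 0 fell. These were Neurod2 (0.28, edgeR adjusted p = 0.0108) and Cux2 (0.19, edgeR adjusted p = 0.0486). Of all 14545 genes, 317 (2.18%) were called lower in PFC and 487 higher. The part of these shifts in the fall of Txnrd1 was not tested.

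**Figure D2:**
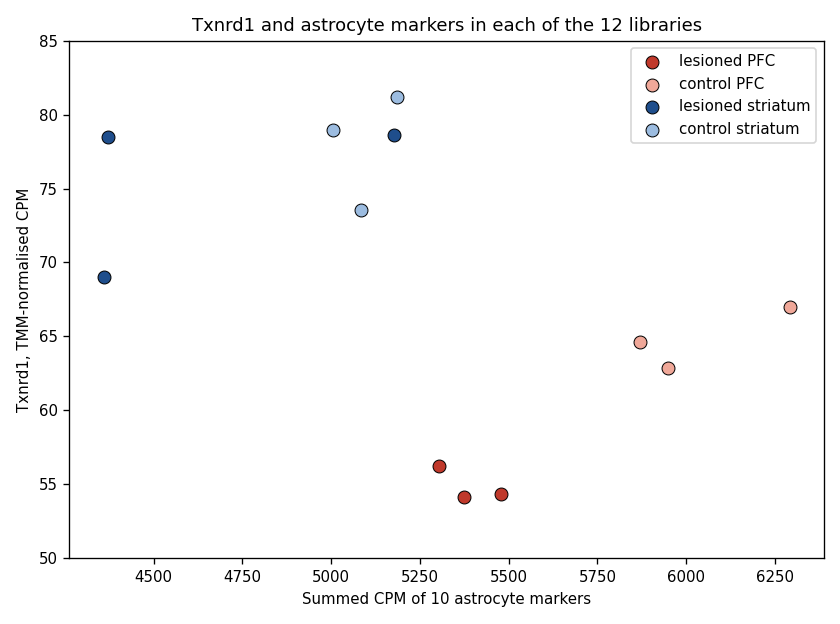
Txnrd1 (vertical axis, TMM-normalised CPM, starting at 50) against the summed CPM of 10 astrocyte markers (horizontal axis) in each of the 12 libraries. The 3 lesioned PFC libraries lie below and left of the 3 control PFC libraries, and the striatal libraries lie above both at astrocyte sums of 4359 to 5184 CPM.

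Srxn1 encodes sulfiredoxin, which restores over-oxidised peroxiredoxins, and lies on chromosome 2 at 152105516 to 152111376. It had 102, 102 and 102 CPM in lesioned PFC, against 97.6, 104 and 105 CPM in control PFC, so that the lesioned libraries lay inside the range of the controls (-0.01, SE 0.05, edgeR adjusted p = 0.962).

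The dismutases convert superoxide to hydrogen peroxide, Sod1 in the cytosol with copper and zinc and Sod2 in mitochondria with manganese. Sod1 (chromosome 16, 90220754 to 90226329) had 126, 126 and 126 CPM in lesioned PFC, against 130.2, 126 and 149 CPM in control PFC. Control library 3 was the high one, the groups overlapped, and the log2 fold change was -0.11 (SE 0.06, edgeR adjusted p = 0.352). Sod2 (chromosome 17, 13006846 to 13040063) had 198, 200.3 and 207 CPM in lesioned PFC, against 207, 234 and 189 CPM in control PFC. Its controls spread over more than the lesioned libraries and enclosed them (-0.07, SE 0.06).

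In striatum none of the 10 genes was called after the lesion by edgeR, where 0.0275% of all genes were called. At an unadjusted p below 0.05 there was 1 gene of the 10 with edgeR and limma-voom and 0 with DESeq2, and both other tools also called 0 of the 10. Of all 14545 genes, 2500 had such a p with edgeR, 2430 with limma-voom and 2335 with DESeq2. The libraries of lesioned and control striatum did not overlap for 3 genes, Gclc above the controls and Srxn1 and Sod1 below them, against 25.7% of all genes. The median of the 10 log2 fold changes was -0.04, and their median absolute value was 0.13, beside 0.15 for all genes.

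The gene with the smallest p in striatum was Srxn1, with 81.1, 91.0 and 93.4 CPM in lesioned striatum, against 102, 95.9 and 104 CPM in control striatum. All lesioned libraries were lower, and lesioned library 1 was the lowest. Its log2 fold change was -0.19 (SE 0.08, unadjusted p = 0.0419, edgeR adjusted p = 0.272). With lesioned library 1 and control library 2 left out, Srxn1 had -0.16 (edgeR adjusted p = 0.361).

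Sod1 had 144, 153 and 154 CPM in lesioned striatum, against 157, 159 and 174 CPM in control striatum, a log2 fold change of -0.12 (SE 0.08, edgeR adjusted p = 0.418). The gap between the highest lesioned and the lowest control library was narrow. Sod2 had 195, 200.7 and 195 CPM in lesioned striatum, against 221, 177 and 203 CPM in control striatum (-0.03, SE 0.09). As in PFC, the Sod2 controls enclosed the lesioned libraries.

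Gclc had 82.5, 74.0 and 70.7 CPM in lesioned striatum, against 68.8, 68.9 and 66.5 CPM in control striatum, with a log2 fold change of 0.15 (SE 0.08, edgeR adjusted p = 0.378). Lesioned library 1, the one with the high projection neuron sum, was the highest, and without it and control library 2 the value for Gclc was 0.09. Its partner Gclm had 64.7, 68.0 and 67.6 CPM in lesioned striatum, against 71.5, 64.0 and 70.2 CPM in control striatum, and the groups overlapped (-0.04, SE 0.07).

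Nfe2l2 had 17.0, 19.7 and 16.4 CPM in lesioned striatum, against 17.3, 14.3 and 16.6 CPM in control striatum (0.14, SE 0.12). Keap1 had 80.8, 70.3 and 79.9 CPM in lesioned striatum, against 77.5, 79.3 and 79.3 CPM in control striatum (-0.04, SE 0.08). For both regulators the groups overlapped, with 1 lesioned library apart in each case, library 2, high for Nfe2l2 and low for Keap1.

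Nqo1 had 6.39, 5.52 and 5.27 CPM in lesioned striatum, against 3.79, 5.41 and 4.72 CPM in control striatum. The ranges met, and the log2 fold change of 0.30 (SE 0.18) had an interval from -0.14 to 0.73. With 1 library left out, the value ran from 0.16 to 0.42. Hmox1 had 2.95, 3.81 and 3.74 CPM in lesioned striatum, against 3.15, 4.20 and 4.06 CPM in control striatum, an overlap with a log2 fold change of -0.13 (SE 0.20). The sign of Hmox1 turned, to 0.06, once lesioned library 1 and control library 2 were left out. Txnrd1 had 78.6, 69.0 and 78.5 CPM in lesioned striatum, against 81.2, 73.6 and 78.9 CPM in control striatum, and its groups overlapped (-0.05, SE 0.08, edgeR adjusted p = 0.741).

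**Figure D3:**
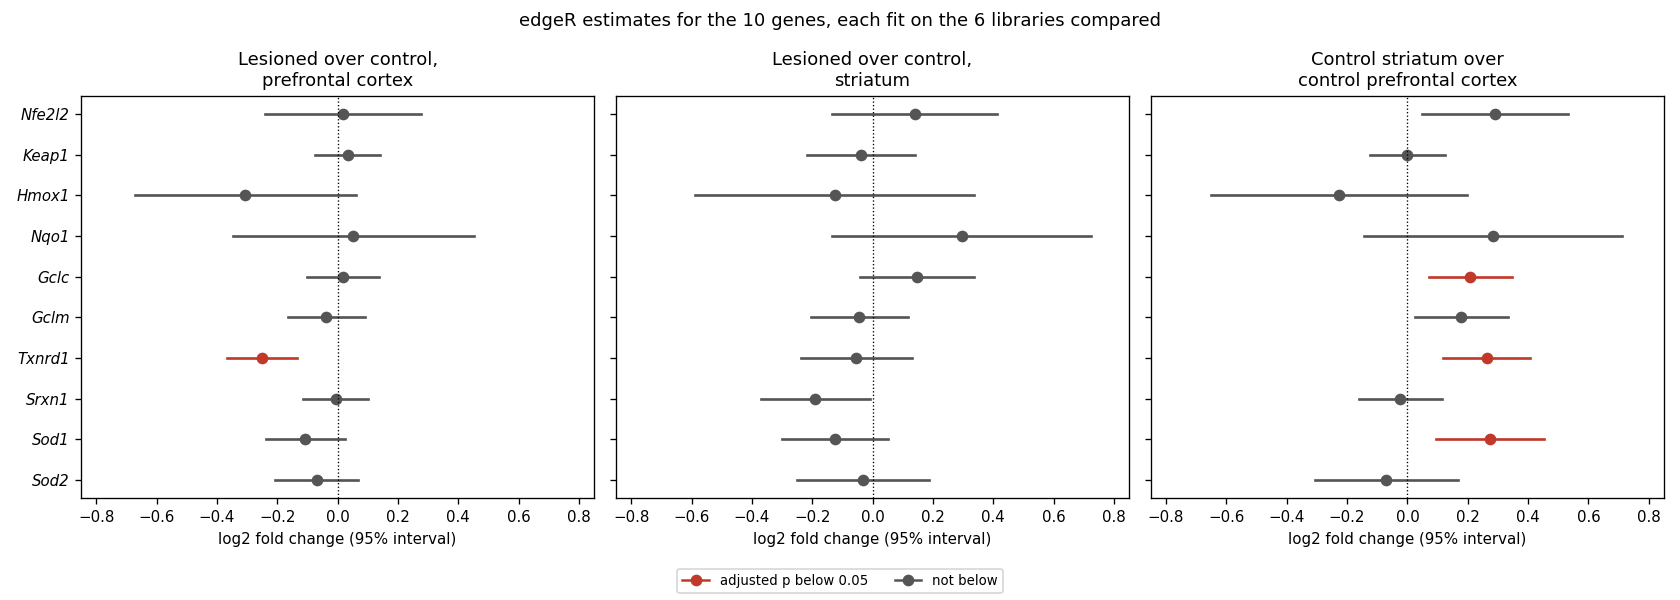
Log2 fold changes of the 10 genes (points) with 95% intervals (lines) for the lesion in PFC, the lesion in striatum, and control striatum over control PFC; red marks an adjusted p below 0.05. Txnrd1 at -0.25 is the one red point for the lesion in PFC, none is red for the lesion in striatum, and Gclc, Txnrd1 and Sod1 are red, at 0.21 to 0.27, between the regions.

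Whether the lesion effects differed between the regions was tested as an interaction on all 12 libraries, in which 0.0825% of all genes were called. None of the 10 genes was called by edgeR, DESeq2 or limma-voom, and 0 of the 10 had an unadjusted p below 0.05 with any of these tools. Of all 14545 genes, 1703 had such a p with edgeR, 1608 with DESeq2 and 1588 with limma-voom. That share of edgeR calls stands beside 116 genes called by DESeq2 and 2 by limma-voom. For Txnrd1, the gene called in PFC alone, the effect in striatum minus that in PFC was 0.19 (SE 0.09, interval -0.01 to 0.39, edgeR adjusted p = 0.448). For Srxn1 the same difference was -0.19 (SE 0.09, interval -0.38 to 0.01, edgeR adjusted p = 0.444). The fall of Txnrd1 is thus not shown to differ between PFC and striatum.

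Between the regions in controls, 3 of the 10 genes were called, and all 3 were higher in striatum. Of all genes 41.8% were called, 20.9% as higher in striatum. The libraries of the regions did not overlap for 5 of the 10 genes, against 54.9% of all genes, so that neither share, over both directions, was above that of all genes. The median of the 10 log2 fold changes was 0.19, beside 0.02 for all genes. The comparison shares its control libraries with those of the lesion.

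Txnrd1 was 73.6 to 81.2 CPM in control striatum, against 62.9 to 67.0 CPM in control PFC, a log2 fold change of 0.26 (SE 0.06, edgeR adjusted p = 0.0108). Sod1 was 157 to 174 CPM in control striatum, against 126 to 149 CPM in control PFC (0.27, SE 0.08, edgeR adjusted p = 0.0230). Gclc was 66.5 to 68.9 CPM in control striatum, against 56.7 to 59.9 CPM in control PFC (0.21, SE 0.06, edgeR adjusted p = 0.0238). All 3 had no overlap between the regions.

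Nfe2l2 and Gclm also had no overlap, with log2 fold changes of 0.29 (SE 0.11, edgeR adjusted p = 0.0551) and 0.18 (SE 0.07, edgeR adjusted p = 0.0619). Both were called once control library 2 of striatum was left out, at adjusted p = 0.0165 for Nfe2l2 and 0.0142 for Gclm, so that 5 of the 10 genes were then called. In that fit 6838 of all 14545 genes were called, so that 5 of 10 is near the share of all genes. The calls also leaned on single libraries in the other direction. Txnrd1 lost its call without control library 1 of PFC (adjusted p = 0.0504). Sod1 lost it without control library 1 or 2 of PFC (adjusted p = 0.0854 and 0.0821) or control library 3 of striatum (0.0895). Gclc lost it without control library 1 or 3 of PFC (adjusted p = 0.0634 and 0.0781) or control library 1 of striatum (0.0515). With an offset for GC content and transcript length, Txnrd1 kept its call (0.21, adjusted p = 0.0320), and Sod1 (0.20, adjusted p = 0.0618) and Gclc (0.13, adjusted p = 0.105) did not.

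The other 5 genes did not pass. Nqo1 had 0.28 (SE 0.19) and Hmox1 -0.23 (SE 0.19) with overlapping regions, while Keap1 was at 0.00 with an interval from -0.13 to 0.12. Srxn1 (-0.02, SE 0.06) and Sod2 (-0.07, SE 0.10) overlapped as well. Beside these values stand the cell types of the regions: 8 of 8 markers of mature oligodendrocytes and 10 of 10 of striatal projection neurons were higher in control striatum, and 3 of 10 astrocyte markers were higher and 2 lower. Their part in the differences of Txnrd1, Sod1 and Gclc was not tested.

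Levels of different genes were compared per kilobase of the principal transcript. In control PFC, Sod1 was highest with 210.4 CPM per kb, followed by Srxn1 with 36.3 and Sod2 with 35.8, whose libraries overlapped. Below them came Keap1 with 21.8, Txnrd1 with 18.4, Gclc with 17.2 and Gclm with 10.8 CPM per kb. Nfe2l2 with 5.30, Hmox1 with 2.84 and Nqo1 with 2.46 CPM per kb were lowest, and none of the neighbours below Sod2 overlapped. In lesioned PFC, Txnrd1 stood at 15.6 and Gclc at 17.5 CPM per kb. In control striatum, Txnrd1 with 22.1 and Keap1 with 21.8 CPM per kb overlapped, and in lesioned striatum Gclc with 22.1, Txnrd1 with 21.4 and Keap1 with 21.3 did so. Sod1 led in all 4 groups by this measure. Per kilobase of all annotated exons, Srxn1 with 36.2 CPM per kb stood above Sod1 with 34.0 in control PFC, and Gclc with 15.6 above Txnrd1 with 9.15, so that the order depends on the length used.

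Pairs of genes that work together were set in ratio within each library, a choice made after the values were seen. Exact permutation tests over 3 against 3 libraries cannot go below 0.1, and the smallest p adjusted over the 9 comparisons was 0.6. The ratio of Gclc to Gclm counts was 1.28, 1.09 and 1.05 in lesioned striatum, against 0.963, 1.08 and 0.949 in control striatum (exact permutation p = 0.2, two-sided). Lesioned library 1 was the high one, and the ranges overlapped. The ratio of Nfe2l2 to Keap1 counts was 0.223, 0.180 and 0.209 in control striatum, against 0.160, 0.161 and 0.179 in control PFC, with no overlap and the smallest p that the design allows (exact permutation p = 0.1, two-sided).

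The genes whose pattern over the 12 libraries was closest to a member were found by the root mean square difference of centred log2 CPM, over 13682 genes above 1 CPM. Those closest to Nfe2l2 were Spg21 (0.07), Ppip5k2 (0.09) and Tti2 (0.10). For Hmox1 they were Rras, Atp5k and Atp5e (0.10 each). For Sod2 they were Dnm1l, Fip1l1 and Alkbh8 (0.05 each). About their own means, the members varied little by the same measure, by 0.22 for Nfe2l2, 0.20 for Hmox1 and 0.10 for Sod2. Whether genes this close share more than a nearly flat profile was not tested.

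Further genes of the same chemistry were taken from 9 lists of 138 symbols, of which 127 were tested. In PFC, 10 of these fell and 3 rose, which is 10.2% of those tested, against 5.53% of all genes. None of the 13 was called when all 12 libraries shared 1 fit, with adjusted p between 0.161 and 0.668. With each PFC library left out in turn, 2 of the 13, Idh2 and Selenop, kept their calls in all 6 fits, and Prdx1 kept it in 0.

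The thioredoxin and peroxiredoxin list, to which Txnrd1 belongs by function, had 3 falls and 0 rises among 19 genes, with a median of -0.05. Selenop, the secreted selenoprotein that carries selenium between cells, averaged 242 ± 13.6 CPM in lesioned PFC and 295 ± 5.66 CPM in control PFC (-0.30, SE 0.05, edgeR adjusted p = 0.0037). The small selenoprotein gene Selenow averaged 473 ± 12.5 CPM in lesioned PFC and 559 ± 22.02 CPM in control PFC (-0.25, SE 0.05). Without lesioned library 2 of PFC, Selenow was not called (adjusted p = 0.0636). Prdx1, a cytosolic peroxiredoxin that thioredoxin reduces, fell by 0.21 on the log2 scale (SE 0.05).

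Among 18 genes of glutathione synthesis, recycling and peroxidases, 2 fell and 0 rose in PFC, with a median of -0.09. The glutaredoxin gene Glrx averaged 17.0 ± 0.77 CPM in lesioned PFC and 22.8 ± 1.57 CPM in control PFC (-0.44, SE 0.09, edgeR adjusted p = 0.0099). Gpx3, a secreted glutathione peroxidase and selenoprotein, had -0.75 (SE 0.21, adjusted p = 0.0498), a value that was 0.0531 with a filter at 1 CPM in 3 libraries. With 1 library left out, Gpx3 ran from -0.92 to -0.40 and was called in 2 of 6 fits, those without control PFC library 2 or 3. Among 17 tested glutathione transferases, Gstt1 rose (0.65, SE 0.16) and none fell. Gstt1 was called in 1 of 6 fits with 1 library left out. Of 10 genes of NADPH supply, 1 fell, the mitochondrial isocitrate dehydrogenase gene Idh2, with 29.8 ± 2.65 CPM in lesioned PFC and 40.7 ± 1.73 CPM in control PFC (-0.46, SE 0.07, edgeR adjusted p = 0.0035).

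In the remaining lists, the transferrin receptor gene Tfrc (-0.30, SE 0.08) and the ferritin light chain gene Ftl1 (-0.19, SE 0.05) fell among 10 genes of haem and iron handling. The lesioned and control libraries overlapped for Tfrc. The carbonyl reductase gene Cbr3 (-0.76, SE 0.16) and the retinal dehydrogenase gene Aldh1a1 (-0.26, SE 0.07) fell among 17 genes of quinone and aldehyde handling. Pink1, a kinase that marks damaged mitochondria (0.18, SE 0.04), rose among 8 partners of the dismutases, and Xdh, the xanthine dehydrogenase gene (1.23, SE 0.23), among 11 sources of superoxide and hydrogen peroxide. Xdh was low, at 3.43 ± 0.35 CPM in lesioned PFC and 1.45 ± 0.39 CPM in control PFC. Of 6 fits with 1 library left out, Tfrc was called in 1, Ftl1 in 2, Cbr3 in 4, Aldh1a1 in 1, Pink1 in 2 and Xdh in 5. Of 17 regulators and partners of Keap1 and Nrf2, the smallest edgeR adjusted p in PFC was that of the related factor Nfe2l1, 0.285 (0.08, SE 0.04). As for Txnrd1, the astrocyte and endothelial sums given above were lower beside these falls, and their part was not tested.

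**Figure D4:**
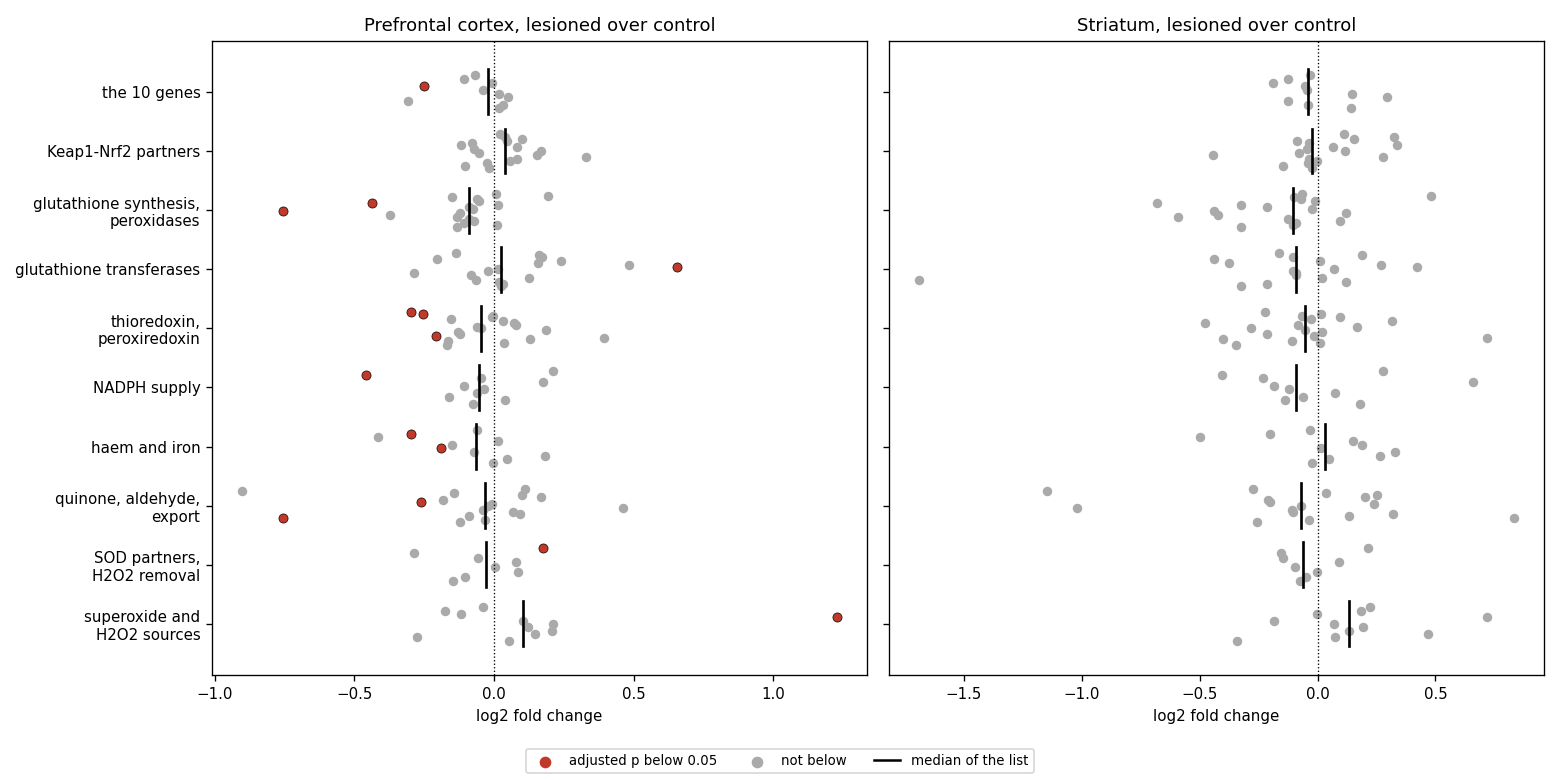
Log2 fold changes (horizontal axes, which differ in range) of the 10 genes and of the tested genes of 9 further lists, for lesioned over control PFC (left) and striatum (right); dots are genes, red at an adjusted p below 0.05, and bars are list medians. The medians lie close to 0 in both regions, and no point is red in striatum.

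In striatum 0 of the 127 further genes were called by edgeR or limma-voom, while 21 had an unadjusted p below 0.05 with edgeR, against 2500 of all 14545 genes. DESeq2 called 2, Oplah higher and Glrx lower. In the fit of all 12 libraries 13 were called, 5 higher and 8 lower, against 1040 of all 14545 genes. Slc7a11, the cystine transporter gene, had 48.6 ± 1.69 CPM in lesioned striatum and 60.6 ± 5.03 CPM in control striatum (-0.33, SE 0.08, edgeR adjusted p = 0.182). Oplah, which returns oxoproline to glutamate, had 29.98 ± 1.35 CPM in lesioned striatum and 21.4 ± 1.196 CPM in control striatum (0.48, SE 0.08, edgeR adjusted p = 0.132). Txn1, the thioredoxin that Txnrd1 reduces, had 33.8 ± 4.12 CPM in lesioned striatum and 42.7 ± 1.51 CPM in control striatum (-0.35, SE 0.10, edgeR adjusted p = 0.204). For these 3 genes the lesioned and control libraries did not overlap, against 25.7% of all genes. The 3 were named from the 2 genes with the smallest p of their lists, so the lack of overlap adds no support. Sesn2, ahead of Txn1 in its list, had -0.48 (SE 0.13, edgeR adjusted p = 0.185), with lesioned libraries below the controls.

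Between the regions in controls, 26 of the 127 were higher and 23 lower in striatum, or 38.6%, against 41.8% of all genes. Of 10 genes of NADPH supply, 7 were higher in striatum and 1 was lower. Among them were G6pdx (0.48, SE 0.08), the entry of the pentose phosphate pathway, and Idh2 (0.44, SE 0.08), while the malic enzyme gene Me1 was lower (-0.47, SE 0.09). Of 17 regulators and partners of Nrf2, 2 were higher and 3 lower in striatum. The higher ones were Mafk, a small Maf gene (0.35, SE 0.10), and Bach1, a repressor that competes for the same elements (0.28, SE 0.08). The lower ones were Cdkn1a, which encodes the cell cycle inhibitor p21 (-0.90, SE 0.10), Nfe2l1, a relative of Nfe2l2 (-0.21, SE 0.07), and Mafg, another small Maf gene (-0.21, SE 0.06) that was added here after its value was seen. With 1 control library left out at a time, Cdkn1a was called in 6 of 6 fits, Mafk in 3, and Bach1 and Nfe2l1 in 1 each.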

How the data were processed

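The deposited values are whole read counts for each gene symbol, 1 column a library. The submitters' processing notes name STAR 2.7.1a, featureCounts and mm10. Per the labels' protocols, mRNA from 500 ng of total RNA with an integrity number of at least 8.9 gave stranded libraries, sequenced as 101 bp pairs. Among the 18140 deposited genes above 0 in some library, 1830, those at 0 in lesioned PFC library 1, hold only multiples of 11. They carry 0.144% of all counts, include none of the 10 genes and were left out. Counts were tested with the edgeR 4.0.16 quasi-likelihood test in R 4.3.3 after filterByExpr and TMM, two-sided, with Benjamini-Hochberg adjustment over 14545 genes. Standard errors (SE) are the absolute log2 fold change over the root of F. Each contrast used the 6 libraries compared, and the interaction used all 12. The test was tried on simulated counts. DESeq2 1.42.0 and limma 3.58.1 (voom) were alternatives, beside other scalings, filters, an offset for GC content and length, and single libraries left out. The ratios used SciPy 1.17.1. Gene coordinates and lengths come from GENCODE M21, promoters from RefSeq (GRCm38.p6). All members are named. Of each further list, the text draws on the genes called in a lesion contrast (at most 4), otherwise the 2 with the smallest p, and for the regions on up to 2 called genes in each direction above 10 CPM. The members, lists and tests were chosen with earlier results of these data known.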

Additional observations from a re-analysis of the deposited data

Results flagged for a closer look

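The 10 genes and the further genes picked by the rule above were looked through for lesion effects of opposite direction. For 2 further genes, Cbr3 and Slc48a1, every lesioned library lay on one side of its controls in PFC and on the opposite side in striatum. Over all genes tested, the groups did not overlap for 24.9% in PFC and 25.7% in striatum. The share of all genes on opposite sides was not counted. Cbr3 had 3.78, 3.32 and 4.54 CPM in lesioned PFC, against 6.57, 5.84 and 7.08 CPM in control PFC. In striatum Cbr3 had 27.8, 13.2 and 18.5 CPM after the lesion, against 11.5, 9.95 and 11.8 CPM in controls. The effect of Cbr3 in striatum minus that in PFC was 1.58 on the log2 scale, which did not pass the interaction test (edgeR adjusted p = 0.166). DESeq2 called it for Cbr3 (adjusted p = 0.0029), and edgeR did without lesioned library 1 and control library 2 of striatum (1.19, adjusted p = 0.0353) and without lesioned library 2 of striatum (1.81, adjusted p = 0.0238). Of the 12 edgeR fits with 1 library left out, only this last called it, and the adjusted p ran up to 0.531. That fit called 171 of all genes. Beside these values, the 10 markers of striatal projection neurons summed to 9487, 3828 and 5510 CPM in lesioned striatum, against 2609, 1813 and 2863 CPM in control striatum. All 10 were above 0 in striatum, with a median log2 fold change of 1.28, and below 0 in PFC, with a median of -0.43, and none was called in either region. Their part in the difference for Cbr3 was not tested.

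Slc48a1, a haem transporter gene, had 169, 162 and 166 CPM in lesioned PFC, against 178, 184 and 186 CPM in control PFC. In striatum Slc48a1 had 160.2, 169.7 and 157 CPM after the lesion, against 137, 137 and 152 CPM in controls. The difference of its effects was 0.33 on the log2 scale (edgeR adjusted p = 0.239, DESeq2 adjusted p = 0.0347). Neither lesion effect of Slc48a1 was called within a region.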

How the results depend on the processing

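Of the 10 genes' counts of calls, that for the lesion in PFC was 0 in place of 1 with all 12 libraries in 1 fit, and 0 to 1 with 1 library left out. Between regions it was 3, and 1 with the offset for GC content and length, with or without the replicate block, 5 with upper-quartile factors, 5 without control library 2 of striatum, and 0 to 5 with 1 library left out. Over all genes, the regions gave 6077 calls, 6259 with the offset and 5848 with the offset and the block. They gave 6153 with upper-quartile factors, 6838 without control library 2 of striatum, and 4657 to 6838 with 1 library left out. Of all genes, 804 were called in PFC, 30 in the fit of all 12, 508 with multiples of 11 kept, and 200 to 995 with 1 library left out. In striatum 4 were called, 1040 in the fit of all 12, 522 with DESeq2, 9 with the offset, 78 without the libraries that stood apart, 0 with voom, with multiples kept and with the replicate block (also with the offset), and 0 to 2 with 1 library left out. For the difference of effects 12 were called, 116 with DESeq2, 2 with voom, 0 with voom quality weights, 5 with multiples kept, 6 with the replicate block (also with the offset), 102 without the libraries that stood apart, and 0 to 171 with 1 library left out. The cause was not tested.

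No label says whether the replicate numbers pair the libraries, and deviations from means of 3 libraries cannot decide it. In PFC, deviations of same-numbered lesioned and control libraries from their group means correlated at -0.05, -0.09 and -0.06. Those of different-numbered ones ran from -0.12 to 0.19. In striatum the same-numbered values were -0.13, 0.01 and 0.03, and the different-numbered ones ran from -0.18 to 0.23. Between striatum and PFC, same-numbered lesioned libraries had 0.11, 0.07 and -7.1e-05, and different-numbered ones -0.10 to 0.07. For control libraries these were 0.08, -0.01 and 0.12, and -0.13 to 0.02. With the block, Txnrd1 in PFC had -0.25 (edgeR adjusted p = 0.0371).

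Signs are taken at 2 decimals, and those that turned belonged to uncalled values. In PFC, Srxn1 was 0.0089 with the offset and 0.0093 with the offset and the block. With 1 library left out, ranges in PFC were -0.13 to 0.10 for Nfe2l2, -0.082 to 0.20 for Nqo1, -0.014 to 0.040 for Gclc, -0.035 to 0.0092 for Srxn1 and -0.14 to 0.011 for Sod2. In striatum they were -0.077 to 0.014 for Keap1 and -0.11 to 0.036 for Sod2. Without the libraries that stood apart, Hmox1 was 0.057 and Ucp2 0.0098 in striatum, and the difference of effects of Sod2 was -0.035. Left-out ranges of that difference were -0.059 to 0.038 for Gclm, -0.097 to 0.024 for Sod1 and -0.054 to 0.11 for Sod2. Between regions, Srxn1 was 0.032 with upper-quartile factors and 0.011 without control library 2 of striatum, and -0.056 to 0.011 with 1 left out. Sod2 was 0.012 without that library, and -0.14 to 0.018 with 1 left out. At 56 to 83 counts in PFC, Hmox1 is limited by counting error.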

Other observations

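In lesioned PFC, the spread of Srxn1 and Sod1 between the 3 libraries was smaller than counting alone gives on average. The coefficient of variation was 0.141% for Srxn1 (102.4, 102.1 and 102.3 CPM) and 0.178% for Sod1 (126.4, 126.1 and 126.0 CPM). Counting error alone corresponds to 2.37% for Srxn1 and 2.14% for Sod1 at their counts. Of the 10 genes, 5 were below that measure in lesioned PFC, against 4 in control PFC, 2 in lesioned striatum and 2 in control striatum. The share of all genes below it was not counted, so these numbers do not set the 10 genes apart. The pattern was picked out after the values were seen.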
